A study of Mus musculus with 6 samples.

Results

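STAT proteins (signal transducers and activators of transcription) are the transcription factors through which cytokine receptors act on genes. A receptor-bound Janus kinase (JAK) phosphorylates a STAT on a tyrosine, and the STAT then pairs through its SH2 domain, enters the nucleus and binds DNA. In CD4+ T cells STAT4 serves interleukin 12 (IL-12) and the Th1 program, STAT6 serves IL-4 and Th2, STAT3 serves IL-6, IL-21 and IL-23 and Th17, the pair STAT5A and STAT5B serves IL-2, IL-7 and IL-15, and STAT2 joins the complex ISGF3 after type I interferon. The 6 genes described here, Stat2, Stat3, Stat4, Stat5a, Stat5b and Stat6, were chosen by name from a table of 23366 genes. All 6 passed the filter on low counts, which left 10897 genes to test.

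The libraries were made from CD4+ effector T cells of mesenteric lymph nodes, taken 6 weeks after T cells were given to Rag-deficient hosts (mice without T or B cells of their own). The strain background is given as FVB/N in all 6 libraries. Cells were sorted by rhodamine 123 (Rh123), a dye that the transporter Mdr1 pumps out, into a dye-low fraction called Mdr1+ and a dye-high fraction called Mdr1-, with 3 libraries each. The labels enter the sorted fraction as the genotype and name no engineered allele other than the Rag deficiency of the hosts. They do not state the age or sex of the mice, or whether a library is 1 animal or a pool, so p-values measure only the spread between these samples.

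Libraries held 2220691 to 20771456 counts in genes, and the Mdr1+ library of replicate 3 was the shallowest and lay far from the remaining 5 along principal component 1 (59.2% of the variance). Abcb1a, the main Mdr1 gene, averaged 162 CPM (counts scaled to library size) in the Mdr1+ libraries against 62.8 CPM in the Mdr1- ones (edgeR log2 fold change 1.37 ± 0.25, standard error), in the direction of the sort. Of 13 T cell identity genes 11 were tested and 0 were called, and Cd4 was at 1050 to 1130 CPM before TMM scaling in every library. CD8 genes summed to at most 2.21 CPM. The 5 NK and innate lymphoid markers summed to 96.2 to 182 CPM in Mdr1+ and 33.6 to 53.1 CPM in Mdr1- libraries. All 3 tested ones had fitted values above 0, of which Eomes, a transcription factor that T cells can also express, rose (116, 171 and 63 CPM before TMM scaling in Mdr1+ replicates 1 to 3 against 36.5, 34.9 and 22.9 in Mdr1-, log2 fold change 1.95, edgeR adjusted p = 0.019), Klrb1c was at 0.81 and Klre1 at 3.13, while Ncr1 was at 0 in 5 libraries and at 0.144 CPM in the other. B cell markers summed to 11.1 to 22.8 against 6.59 to 11.1 CPM, and epithelial ones to 1.99 to 10.8 against 3.12 to 7.81. Stromal and endothelial ones summed to 117 to 190.5 against 125 to 136 CPM, most of it Pecam1 (110 to 181 CPM before TMM scaling over all 6 libraries). Acta2 was lower in Mdr1+ (edgeR adjusted p = 0.018), at 0, 6 and 0 counts in replicates 1 to 3 against 39, 74 and 24 in Mdr1-. Myeloid markers summed to 0.654 to 6.13 CPM in Mdr1+ and 2.25 to 85.4 CPM in Mdr1- libraries, the highest being the Mdr1- library of replicate 3, and dendritic cell markers to 24.2 to 48.1 against 62.1 to 84.6 CPM, most of it Cd74. Of 15 cell cycle genes 14 were lower in Mdr1+ cells (median log2 fold change -2.82). The part of these differences in the values below was not tested, and in bulk samples fewer cells of a type and less RNA per cell cannot be told apart.

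None of the 6 STAT genes differed between Mdr1+ and Mdr1- cells in edgeR's quasi-likelihood test without the replicate number as a term. Their fitted differences lay between -0.01 and 0.40 on the log2 scale, and 5 of 6 were above 0, as were 54.2% of all genes tested. The median was 0.30 against 0.04 over all genes tested. With the replicate number as a block, Stat3 and Stat4 rose in Mdr1+ cells, by 1.3-fold each, and the other 4 did not pass. The background is 2.22% of 10897 genes called without the block (0.275% higher and 1.95% lower) and 12.4% with it (5.81% higher and 6.57% lower). Stat3, Stat4, Stat5a and Stat6 were higher in the Mdr1+ library in all 3 pairs of the same number, which 28.2% of all genes were. At an unadjusted p under 0.05, 0 of the 6 and 1292 of all genes (11.9%) passed without the block, and DESeq2 called 0 of the 6 and 4.59% of all genes (1.04% higher and 3.55% lower). No member was lower in all 3 pairs, which 24.6% of all genes were.

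Stat3, which passes on signals of IL-6, IL-21 and IL-23 and is needed for Th17 cells, had the highest CPM of the 6. TMM-scaled values were 791, 519.8 and 727 CPM in Mdr1+ replicates 1, 2 and 3, and 665, 399 and 512.5 CPM in Mdr1- replicates 1, 2 and 3. Replicate 1 was highest and replicate 2 lowest in both fractions, so that the fractions overlap although the Mdr1+ library is the higher one in each pair. The means were 679.5 ± 142 for Mdr1+ and 526 ± 133 CPM for Mdr1- (SD, n = 3 each). Without the block the log2 fold change was 0.37 ± 0.24 (standard error), with a 95% interval of -0.17 to 0.91 (edgeR adjusted p = 0.62). With the block it was 0.38 ± 0.08, with an interval of 0.19 to 0.56 (edgeR adjusted p = 0.019). The ratios within numbers 1, 2 and 3 were 1.19, 1.30 and 1.42. With 1 replicate number left out at a time the blocked fit still called Stat3, at adjusted p = 0.012 to 0.036 and log2 fold changes of 0.29 to 0.38.

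Stat4, the mediator of IL-12 in Th1 cells, had the largest fitted difference of the 6. It was at 403, 271.5 and 261 CPM in Mdr1+ replicates 1 to 3 and at 292.5, 179 and 237 CPM in the Mdr1- ones. The lower Mdr1+ libraries lie inside the Mdr1- range, and within each number Mdr1+ is the higher, by 1.38, 1.52 and 1.10 times. The mean was 312 ± 79.0 CPM in Mdr1+ against 236 ± 56.9 in Mdr1- (SD over 3 libraries each), and the log2 fold change 0.40 ± 0.24 without the block (95% interval -0.14 to 0.95, edgeR adjusted p = 0.59). The blocked value was 0.41 ± 0.10 (interval 0.18 to 0.64, edgeR adjusted p = 0.033). That call was lost without replicate number 1 (adjusted p = 0.119) and without number 2 (adjusted p = 0.175), with log2 fold changes of 0.32 and 0.31. Without number 3, whose pair has the smallest difference, the blocked value was 0.51 (adjusted p = 0.0038).

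Stat6, which acts downstream of IL-4 and IL-13, was the one member whose fractions did not overlap. Mdr1+ replicates 1 to 3 had 228, 268 and 295 CPM, and Mdr1- replicates 1 to 3 had 217, 205 and 195 CPM. All 3 Mdr1+ libraries lie above all 3 Mdr1- libraries, a separation that 19.7% of all genes show in either direction and 8.71% with Mdr1+ higher. The gap in replicate 1 is small (1.05 times), while replicates 2 and 3 had ratios of 1.30 and 1.51. On average Stat6 was at 264 ± 33.7 and 206 ± 11.0 CPM (SD, n = 3 each), with a log2 fold change of 0.36 ± 0.17 (95% interval -0.02 to 0.73). It missed the threshold without the block (edgeR adjusted p = 0.45) and with it (0.34 ± 0.11, adjusted p = 0.071). When replicate number 1 was left out, the blocked fit called it (0.42, adjusted p = 0.022).

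Stat5a and Stat5b encode near-identical factors that carry IL-2, IL-7 and IL-15 signals and support survival and regulatory T cells. Stat5a was at 216, 131 and 159 CPM in Mdr1+ replicates 1 to 3 and at 189.7, 102 and 136 CPM in Mdr1- replicates 1 to 3. Within each number the Mdr1+ library was higher, by 1.14, 1.28 and 1.17 times. In both fractions number 1 was the highest and number 2 the lowest. The means of 169 ± 43.5 and 143 ± 44.3 CPM (SD, n = 3 each) gave a log2 fold change of 0.24 ± 0.27 (95% interval -0.36 to 0.84, edgeR adjusted p = 0.79). With the block it was 0.26 ± 0.09 (interval 0.06 to 0.46, edgeR adjusted p = 0.097). Leaving out the Mdr1+ library of replicate 1 turned the unblocked value to -0.02, and leaving out number 3 took the blocked fit past the threshold (0.25, adjusted p = 0.047).

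Stat5b was at 296, 249 and 282.5 CPM in Mdr1+ replicates 1 to 3 and at 308.5, 225 and 221 CPM in the Mdr1- libraries. The highest value is that of Mdr1- replicate 1, and the fractions overlap. Mean levels were 276 ± 24.2 against 251 ± 49.6 CPM (SD over 3 libraries each), and the log2 fold change was 0.13 ± 0.19 (95% interval -0.29 to 0.56, edgeR adjusted p = 0.84) without and 0.14 ± 0.10 (adjusted p = 0.39) with the block. The log2 ratio of Stat5a to Stat5b CPM was -0.74 ± 0.25 in Mdr1+ and -0.85 ± 0.26 in Mdr1- libraries (SD, n = 3 each). The difference between fractions lay within the spread of the libraries (two-sided exact permutation p = 0.6, which ignores the pairing by number). In replicates 1, 2 and 3 the ratio was -0.453, -0.929 and -0.826 in Mdr1+ and -0.701, -1.142 and -0.694 in Mdr1-.

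How far Stat5a and Stat5b can be told apart depends on their sequence. In GENCODE M21 (GRCm38), 608 distinct stretches of 50 bases occur in transcripts of both, which is 8.21% of those of Stat5a and 11.0% of those of Stat5b. Neither shares any with the other 4 genes in the direction of transcription, and opposite strands were not compared. The coding sequences of Stat5a and Stat5b share 1 unbroken identical run of 324 bases, at positions 571 to 894 of each counted from the start codon. Any other pair of the 6 shares at most 23 bases in the same direction. The first 150 bases of the run of Stat5a and Stat5b are printed because a read that lies wholly inside it matches both genes equally:

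Stat5a and Stat5b, positions 571 to 720: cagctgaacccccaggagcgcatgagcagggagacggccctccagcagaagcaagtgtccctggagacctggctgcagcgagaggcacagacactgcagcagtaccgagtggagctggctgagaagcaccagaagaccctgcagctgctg

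Reads without a unique position stood in a class of their own in the deposited table (67.0% to 73.2% of all entries in the 4 libraries of replicates 1 and 2), and a read aligned equally to Stat5a and Stat5b would be counted there and for neither gene. Per RefSeq (GRCm38.p6), Stat5b, Stat5a and Stat3 are direct neighbours on chromosome 11. Annotated exons of Stat3 and Stat5a share 72 bases on opposite strands, and those of Stat6 and Nab2 share 40. Exons of Stat4 share 1033 bases (26.7% of its own) with the transcript Gm28177 on the same strand. The strand setting of the counting is not given, so reads in the stretches on opposite strands cannot be assigned with certainty. No strand setting would separate Stat4 from Gm28177, and the annotation used for counting is not given either.

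Stat2, the interferon-specific member that pairs with Irf9 in ISGF3, was the least abundant. Its values were 65.8, 57.5 and 44.8 CPM in Mdr1+ replicates 1 to 3 and 56.1, 51.9 and 62.3 CPM in Mdr1- replicates 1 to 3. The highest and the lowest library are both Mdr1+, the lowest being replicate 3, where the value rests on 95 counts. Means of 56.0 ± 10.6 and 56.8 ± 5.25 CPM (SD, n = 3 each) gave a log2 fold change of -0.01 ± 0.19, with a 95% interval of -0.45 to 0.43 (edgeR adjusted p = 0.99). The ratios within numbers were 1.17, 1.11 and 0.72, so the sign is set by replicate 3. The value was 0.11 with Mdr1+ replicate 3 left out, 0.06 with Mdr1- replicate 3 left out, 0.17 with both left out, and 0.00 with the block.

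**Figure D1:**
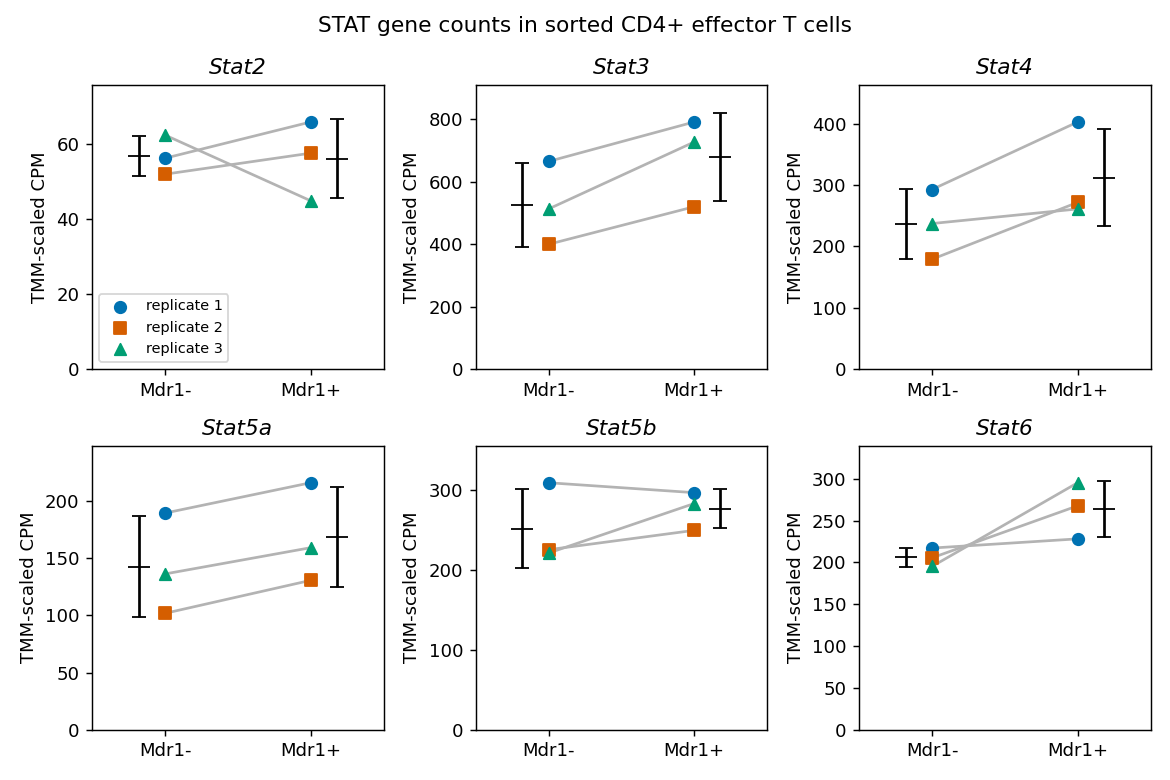
TMM-scaled CPM (y axes, linear from 0) of the 6 STAT genes in the Mdr1- and Mdr1+ libraries (x axes). Each symbol is 1 library, grey lines link equal replicate numbers, and black bars give mean and SD (n = 3). Lines for Stat3, Stat4, Stat5a and Stat6 all slope upward, and only Stat6 has no overlap between fractions.

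The plot of fold changes in both fits shows where the call depends on the replicate number. For Stat3 the interval is narrower with the block, at nearly the same fitted value. For Stat2 and Stat5b both intervals include 0.

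**Figure D2:**
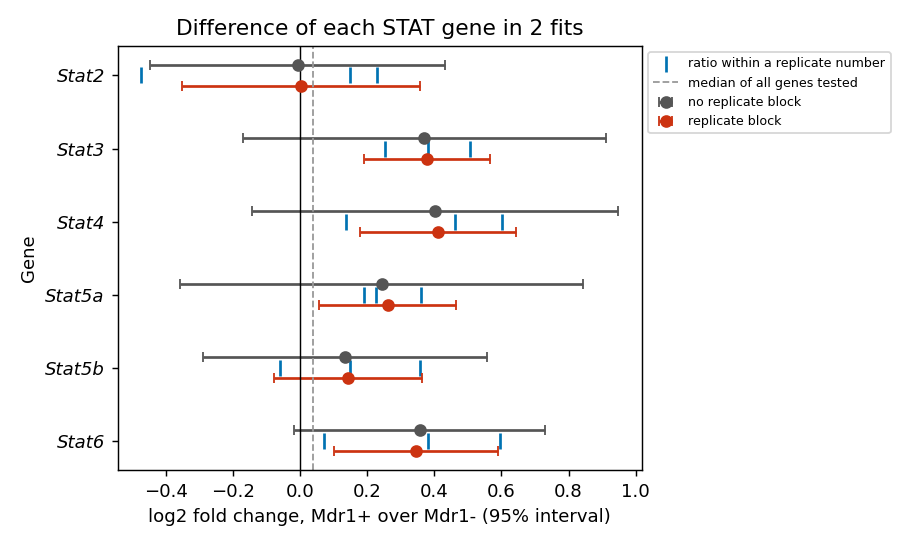
For each STAT gene (y axis), the log2 fold change between Mdr1+ and Mdr1- cells (x axis, positive where Mdr1+ is higher) with its 95% interval, without the replicate block (grey) and with it (red). Blue ticks are the log2 ratios within replicate numbers 1 to 3, and the dashed line is the median of all genes tested (0.04). All 6 grey intervals include 0, and the red intervals of Stat3, Stat4, Stat5a and Stat6 do not, of which Stat3 and Stat4 pass after adjustment over all genes.

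Most of the variation of 4 members followed the replicate number. Of the variation of log2 CPM over the 6 libraries, the number carried 66.5% for Stat3, 59.5% for Stat4, 85.9% for Stat5a and 64.4% for Stat5b, against a median of 54.2% over all genes tested. The fraction carried 31.1%, 32.7%, 13.0% and 15.4% of it for the same 4 genes, where the median over all genes is 19.2%. Over genes that averaged 4 or more in log2 CPM, as all 6 members did, the medians were 58.6% for the number and 19.5% for the fraction. Mean levels of Stat3, Stat4, Stat5a and Stat5b over both fractions were highest in replicate 1 and lowest in replicate 2. For Stat5a they were 203, 116 and 148 CPM in replicates 1, 2 and 3. Stat6 was the reverse case, with 69.1% of its variation between the fractions and 4.7% between numbers. Stat2 followed neither, with 0.8% between fractions and 76.3% left over. What differed between the replicate numbers is not given in the labels.

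**Figure D3:**
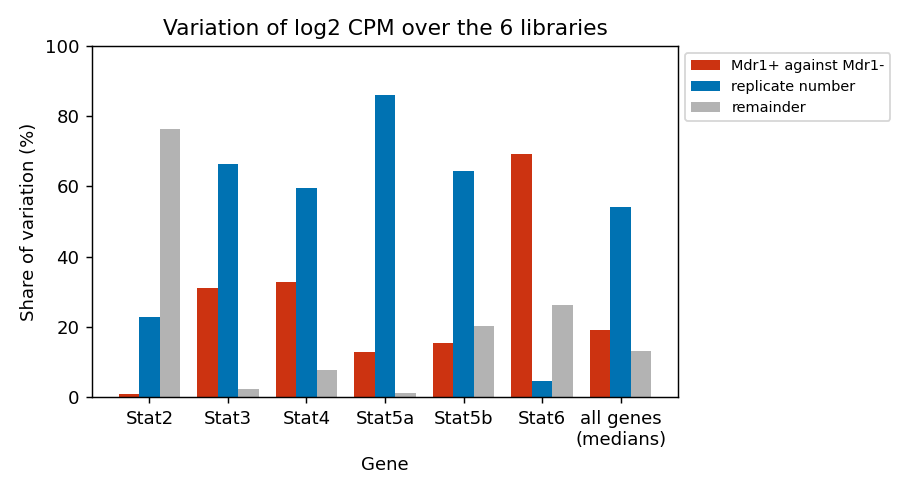
Share of the variation of log2 CPM over 6 libraries (y axis, percent, as sums of squares) that lies between the fractions (red), between the replicate numbers (blue) and in the remainder (grey), for each STAT gene and as medians over all 10897 genes tested (x axis). The blue bar is the tallest for Stat3, Stat4, Stat5a and Stat5b, the red one for Stat6 and the grey one for Stat2.

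Compared per length (CPM per kb of the transcript with the longest coding sequence in GENCODE M21), the 6 genes had the same order of mean levels in both fractions. Stat3 led with 150.5 ± 31.4 in Mdr1+ and 116 ± 29.5 CPM per kb in Mdr1- cells (SD, n = 3 each). Stat4 followed with 104 ± 26.5 and 79.2 ± 19.1, and then Stat6 with 69.8 ± 8.93 and 54.5 ± 2.92 CPM per kb. By this length Stat3 was above Stat4, and Stat4 above Stat6, in each of the 6 libraries. Stat5b (52.9 ± 4.65 and 48.2 ± 9.51 CPM per kb) and Stat5a (46.8 ± 12.1 and 39.6 ± 12.3) did not differ beyond their spread by this length. Stat5a was the higher one in Mdr1+ replicate 1. Both comparisons depend on the length chosen. All annotated exons together hold 9527 bases for Stat3 and 3872 for Stat4, against 4516 and 2982 in the transcripts used. Divided by all exons, the mean of Stat4 lies above that of Stat3 in both fractions. For Stat5a and Stat5b all exons hold 7133 and 5539 bases, against 3605 and 5213. By all exons the gap of Stat5b over Stat5a is wider in both fractions. Stat5b exceeded Stat6 in Mdr1- replicate 1 (59.2 against 57.5). Stat2 stood apart at 12.7 ± 2.41 and 12.9 ± 1.19 CPM per kb, and its highest library (15.0) lies below the lowest of any other member (28.2, Stat5a in Mdr1- replicate 2).

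**Figure D4:**
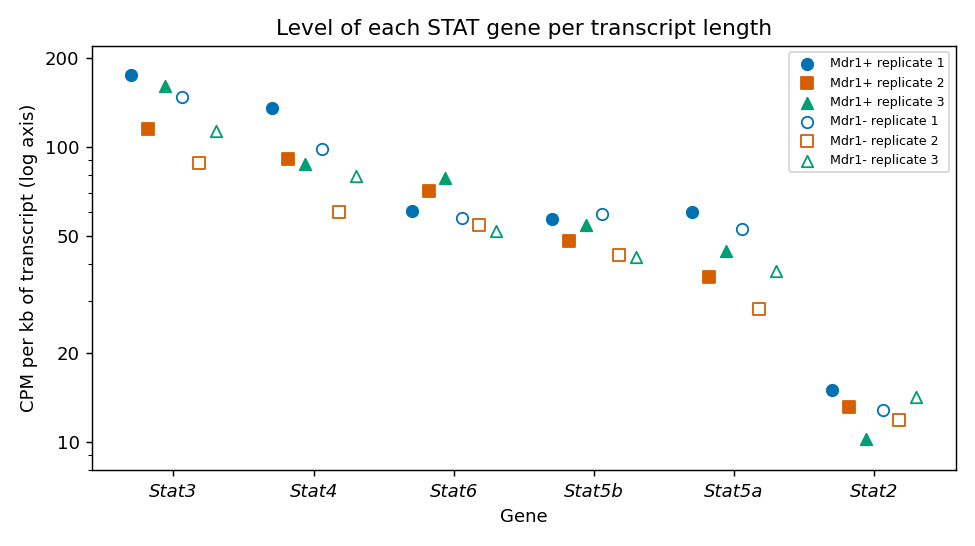
Level of each STAT gene (x axis) in CPM per kb of transcript (y axis, log scale) in each library. Filled symbols are Mdr1+ and open symbols Mdr1-, and shape and colour give the replicate number. The range of Stat3 is 88.4 to 175, that of Stat4 60.0 to 135 and that of Stat2 10.2 to 15.0.

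The makeup of the family was also compared, since shares of the summed counts do not depend on library scaling. Stat3 made up 38.5% ± 3.3 of the counts of the 6 genes in Mdr1+ and 36.8% ± 2.2 in Mdr1- libraries (SD, n = 3 each), Stat4 17.7% ± 2.7 and 16.6% ± 1.0, and Stat2 3.22% ± 0.66 and 4.09% ± 0.73. Stat5b had the largest difference, with 15.8% ± 0.93 against 17.8% ± 1.59, and its share was lower in the Mdr1+ library of every pair (differences of -3.04, -2.70 and -0.21 percentage points, Mdr1+ minus Mdr1-). The share of Stat5a was also lower in every pair (-0.16, -0.02 and -0.99), and that of Stat3 higher in every pair (1.11, 0.38 and 3.51). With counts first divided by transcript length, the differences of Stat3 were 0.431, -0.155 and 3.516, so pair 2 turned. Those of Stat5a and Stat5b stayed below 0 in every pair by that measure. Two-sided exact permutation tests gave p = 0.2 to 0.9 for the 6 shares (Benjamini-Hochberg adjusted p = 0.75 to 0.90), where the smallest p that 3 against 3 libraries allow is 0.1. The summed CPM of the 6 genes was 2000, 1496 and 1770 in Mdr1+ replicates 1 to 3 and 1729, 1162 and 1364 in the Mdr1- ones. It was higher in Mdr1+ in each pair and overlapped between fractions (two-sided exact permutation p = 0.2). None of these permutation tests used the pairing by number.

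Promoter windows around the annotated starts of the members, from RefSeq (GRCm38.p6), were searched on both strands for motifs that STAT complexes are known to bind. GAAA followed after any 2 bases by GAAA is the core of the interferon-stimulated response element that ISGF3 and interferon regulatory factors bind, and it occurs in 3.44% of 32851 promoters in the table. The 6 genes have 9 promoters in it, and the motif was found in that of Stat2 and in 1 of 2 of Stat4. Both are shown, in the direction of the gene, with the motif in capitals (in Stat2 it lies on the opposite strand and reads as its reverse complement):

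Stat2, chr10:128270266-128270295, plus strand: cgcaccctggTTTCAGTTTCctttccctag

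Stat4, chr1:52008133-52008162, plus strand: aatgtcttcaGAAAGTGAAAtttagaacgg

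The Stat2 motif starts 222 bases and the Stat4 motif 97 bases before the annotated start. TTC and GAA with 3 bases between them, the site of most STAT dimers, was in 0 of the 9 promoters and in 8.30% of all, and the same with 4 bases between, the spacing that STAT6 favours, was in that of Stat2 and in 6.95% of all, with no overlap with the other motif. These matches describe letters in the window and were not measured for binding here.

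The genes whose pattern over the 6 libraries was most like that of each member were taken from the 7353 genes that averaged 4 or more in log2 CPM. For Stat3 they were Jmy, Il1rap and Rbm25 (Pearson r = 0.998, 0.996 and 0.996 of log2 CPM), and for Stat4 Stau1, Ms4a6b and Nxf1 (0.998, 0.997 and 0.995). For Stat5a they were Btbd7, Tinf2 and Cd320 (0.999, 0.998 and 0.998), for Stat5b Rcl1, Mpp5 and Nt5c3 (0.997, 0.971 and 0.970), for Stat6 Tsc1, Fbxl12 and Eif2ak4 (0.997, 0.996 and 0.993), and for Stat2 Mfap1a, Rab11fip2 and Ing5 (0.987, 0.980 and 0.975). Among the members themselves Stat3, Stat4, Stat5a and Stat5b had r of 0.76 to 0.94 with each other, Stat5a with Stat3 being the highest. Stat6 had r of 0.17 to 0.44 with those 4 and -0.57 with Stat2. These correlations rest on 6 points that share replicate number, depth and sort, and are given as descriptions.

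Around the STAT genes, 107 of 122 listed genes of the pathway could be tested, of which 4 rose and 2 fell in Mdr1+ cells without the block (5.61%) and 22 rose and 11 fell with it (30.8%), beside 2.22% and 12.4% of all genes. All 6 calls without the block were lost when the Mdr1- library of replicate 3 was left out. Among cytokine receptors that signal through STAT5, STAT3 and STAT6, 1 of 9 rose and 1 fell without the block, and 4 rose and 1 fell with it. Il7r, the IL-7 receptor, was at 881 ± 148 against 379 ± 83.1 CPM and rose by 1.22 ± 0.22 on the log2 scale (edgeR adjusted p = 0.025). Il9r, the IL-9 receptor, fell by 1.25 ± 0.21 (edgeR adjusted p = 0.019). Il2ra, Il4ra and Il21r, which bind IL-2, IL-4 and IL-21, rose with the block alone, by 0.61, 0.67 and 0.56, and Il2rb, shared by IL-2 and IL-15, did not pass (0.13, adjusted p = 0.82 without and 0.39 with the block).

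Of 8 tested receptor genes for IL-12, IL-23, IL-6, IL-27 and IL-10, which feed STAT4 and STAT3, 0 were called without the block and 3 rose and 2 fell with it. The IL-10 receptor genes Il10ra (blocked log2 fold change 1.10) and Il10rb (0.70) and the IL-27 receptor gene Il27ra (0.33) rose, and Il23r (-1.54) and the shared IL-6 receptor chain gene Il6st (-0.43) fell. Of 4 JAK genes 0 were called without the block and Jak1 rose with it (0.30, edgeR adjusted p = 0.030), while Jak2 was at 0.10. Of 4 interferon receptor genes Ifngr1 rose with the block (0.78, edgeR adjusted p = 0.00046), and Ifnar1 was at 0.11. Of 9 tested STAT-activating cytokine genes 0 were called without the block, and with it Il10 rose and Il21, Il22 and Lif fell, while Ifng was at 0.18 (adjusted p = 0.47).

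Socs3, an inhibitor that STAT3 induces, was at 642.5 ± 35.4 against 387 ± 38.8 CPM (log2 fold change 0.73 ± 0.16, edgeR adjusted p = 0.059 without and 0.0021 with the block), and Socs5 also rose with the block. Of the 8 SOCS and CIS genes 0 were called without it, and Cish, a STAT5-induced inhibitor, was at 0.43 with the block (adjusted p = 0.088). Of 14 phosphatase, PIAS and other inhibitor genes Dusp2 rose with the block (0.52), and the 2 most abundant, Ptprc and Ptpn1, were at 0.16 and -0.02. Of 10 partner and coactivator genes Irf9, the partner of STAT2, and Ncoa1 rose (0.40 and 0.46) and Batf fell (-0.49) with the block, while Crebbp and Ncoa3 were at 0.24 and 0.04.

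Lists of genes taken as targets of each STAT, some of them on more than 1 list, moved unevenly. Of 17 tested STAT2 and ISGF3 targets 1 rose without the block, Irf7 (0.92 ± 0.16, edgeR adjusted p = 0.022), and Irf9 and Rtp4 joined it with the block (median of the list 0.39). Of 14 STAT3 targets 0 rose and 1 fell without the block. With it 2 rose, Socs3 and Il10, and 7 fell (median of the list -0.28). Among the 7 were Il17a and Il17f, which encode IL-17 cytokines (blocked log2 fold changes -3.15 and -2.46), Il21, Il22, Il23r and Batf. Hif1a was at 0.12. Of 9 STAT4 targets 0 were called without the block, and Il18r1 (0.40), Il18rap (0.35) and Il10 rose with it, while Ets1, the most abundant, was at 0.15 (median of the list 0.29). Of 15 STAT5 targets 2 rose without the block, Bcl2, a survival gene (1.26 ± 0.18, edgeR adjusted p = 0.0084), and Ccnd2, a D-type cyclin gene (0.98 ± 0.17, edgeR adjusted p = 0.019). With the block Pim2, Il2ra and Il4ra joined them and Lif fell, and Pim1 was at 0.18 (adjusted p = 0.19, median of the list 0.36). Of 8 STAT6 targets 0 were called without the block, and with it Il4ra rose and Ccr4 fell (-0.40), with a list median of -0.31.

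**Figure D5:**
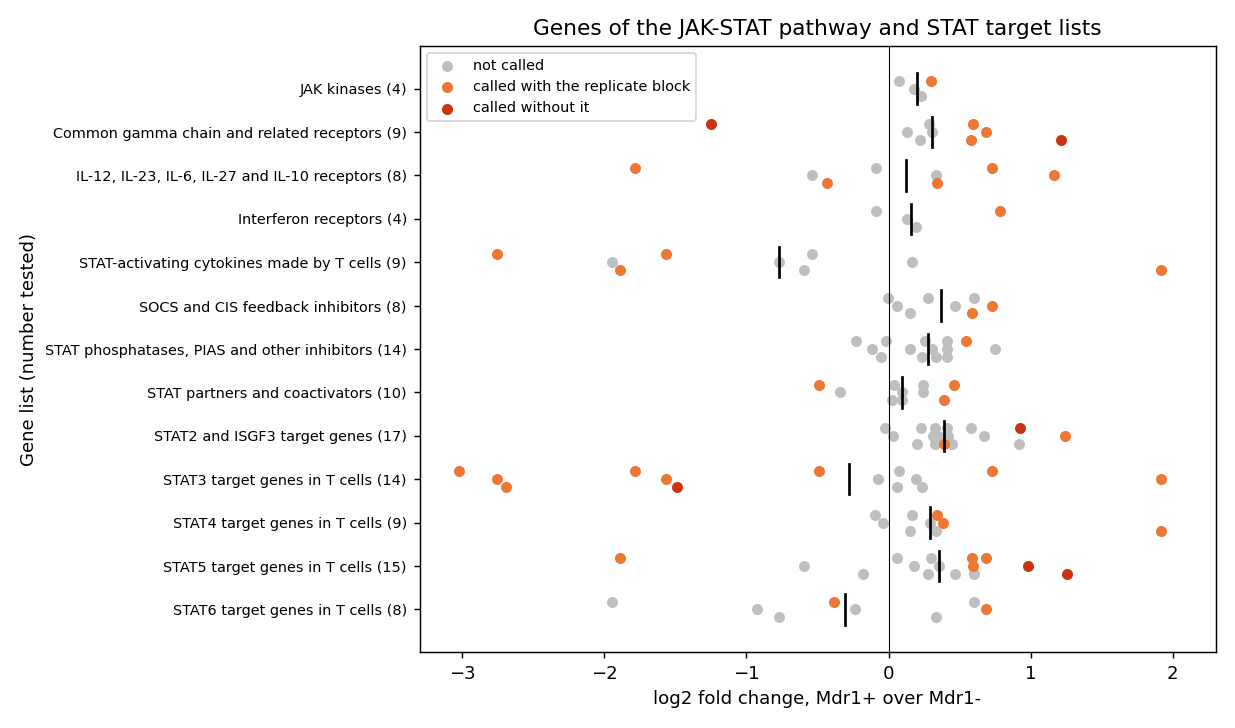
Log2 fold change of Mdr1+ over Mdr1- without the replicate block (x axis) of each tested gene (points) of the pathway and target lists (y axis, number tested in parentheses). Grey points were not called, orange points were called with the replicate block alone, red points also without it, and black bars are list medians. STAT3 targets spread from -3.02 to 1.91, and 12 of 15 STAT5 targets lie above 0, beside 54.2% of all genes tested.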

How the data were processed

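The authors deposited raw counts per gene symbol in 1 table. The submitters' processing notes name TopHat, HTSeq, DESeq2 and mm9. Tool versions, the annotation and the strand setting of the counting: not given in the sources used here. A stranded total RNA kit was used, per the labels' protocols. The columns of replicate 3 stand in another row order than the gene names and were placed in case-insensitive name order, which moves 19002 of 23366 rows and raised their Spearman correlations with the other libraries from 0.424 to 0.460 to 0.926 to 0.962. HTSeq's classes of unassigned reads stayed out of library sizes. A floor of 3 counts is 0.144 to 1.35 CPM.

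In R 4.3.3, edgeR 4.0.16 compared Mdr1+ with Mdr1- by its robust quasi-likelihood F test, after filterByExpr by group and TMM scaling, with Benjamini-Hochberg adjustment over 10897 genes, threshold 0.05. Standard errors are the log2 fold change divided by the root of F, and intervals are 95%. Same-numbered libraries had correlations of deviations from group means of 0.409, 0.568 and 0.213, all over 0.1, and pairing by number was therefore accepted, from the data and not the labels. Alternatives were a replicate block, DESeq2 1.42.0, upper-quartile scaling, no filter, a non-robust fit, and leaving out libraries or numbers. Blocked fits without 1 number were added after seeing the data. Scripts were tested on simulated data. Log2 CPM uses a prior count of 2. The members and lists were chosen with earlier results of these data known. Named are the 6 members, the 3 genes most like each, and from each list the genes called in either fit and the 2 most abundant, except that some listed genes are not reported here by name. Reference sequences are GRCm38 (promoters RefSeq, transcripts GENCODE M21), and no coordinates were converted.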

Additional observations from a re-analysis of the deposited data

How the results depend on the processing

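Against 0 STAT genes called, the replicate block gave 2 higher, and blocked fits without replicate number 1, 2 or 3 (chosen after seeing the data) gave 2, 1 and 3. DESeq2, upper-quartile scaling, no filter, a non-robust fit and unblocked leave-outs gave 0. Over all genes, against 30 higher and 212 lower, the paired fit called 633 and 716, DESeq2 113 and 387, and no filter 52 higher. Blocked fits without number 1, 2 or 3 called 436, 259 and 1131 higher and 694, 392 and 1347 lower, and unblocked leave-outs 0 to 15 higher and 0 to 196 lower. Among pathway genes, against 4 higher and 2 lower, the replicate block gave 22 and 11, DESeq2 7 and 7, blocked fits without number 1, 2 or 3 16, 10 and 31 higher and 8, 8 and 17 lower, and unblocked leave-outs 0 to 4 each. Lower calls were 4 with upper-quartile scaling and 5 without a filter. The cause was not tested.

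Stat3, Stat4, Stat5b and Stat6 kept their direction in all 17 alternatives. Stat2 turned to 0.001 with the replicate block and 0.157 with it without number 3, and ranged from -0.202 to 0.166 over leave-outs. Stat5a ranged from -0.019 to 0.471. Leave-outs also turned Jak2 (-0.212 to 0.366), Ifnar1 (-0.079 to 0.297, paired without number 3 -0.058), Ifng (-0.219 to 0.387, paired without number 2 -0.007), Ptpn1 (-0.179 to 0.023, paired without number 1 or 2 0.019 and 0.006), Ptprc (-0.087 to 0.29), Ncoa3 (-0.022 to 0.071, paired without number 3 -0.02), Hif1a (-0.233 to 0.426, paired without number 2 -0.01) and Ets1 (-0.041 to 0.26), none called with all libraries. The calls of Il7r, Il9r, Irf7, Bcl2 and Ccnd2 were lost in 6, 7, 8, 3 and 6 of 9 unblocked leave-outs. Without 1 replicate number, share differences (Mdr1+ minus Mdr1-, percentage points) ranged from 0.0558 to 2.98 for Stat4 (2.98 without number 3, 0.0558 without number 1), 0.744 to 2.31 for Stat3, -1.33 to -0.29 for Stat2, -0.576 to -0.0912 for Stat5a, -2.87 to -1.46 for Stat5b and -0.471 to 1.29 for Stat6, which turned without number 3. Depth limits Stat2 in Mdr1+ replicate 3 most (95 counts).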
